A study of Mus musculus with 8 samples.

Results

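The replication-dependent histone genes of the mouse were followed in embryonic heart tissue. Members were all symbols of the count table that start with Hist1h, Hist2h, Hist3h or Hist4h, 68 of 22869 distinct symbols, with the row of the largest total kept where a symbol stood on several rows. They comprise 6 H1, 18 H2A, 19 H2B, 12 H3 and 13 H4 genes, and 54 belong to the Hist1 cluster, 10 to Hist2, 3 to Hist3 and 1 to Hist4. 60 members passed the filter on low counts and were tested among 14940 symbols. These were all 6 H1, 12 H3 and 13 H4 genes, 13 of the H2A genes and 16 of the H2B genes.

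The study addressed gene regulation by KLF2, a transcription factor of endothelial cells that responds to blood flow, in the atrioventricular (AV) cushions. These cushions are tissue ridges that give rise to heart valves and septa. Total RNA was sequenced from 4 groups of 2 libraries each, all of strain C57BL/6 at E12.5, a day count of embryonic age. The groups were mutant cushion, wild type cushion, mutant ventricle and wild type ventricle. The mutant samples carry the genotype label NfatC1+/-; KLF2fl/fl. The controls are labelled wild type, whereas the design text calls them KLF2 fl/fl mice, so the controls may carry the floxed alleles too. The labels do not say whether the sign +/- marks the loss of a copy of Nfatc1 or an allele that carries a recombinase, and so the mutants may differ from the controls in Nfatc1 as well as in Klf2. They also do not name the embryos behind each library, and p-values below measure the spread between these libraries, which may be technical.

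Replication-dependent histone genes supply the histones that package newly copied DNA, and their mRNAs accumulate in S phase and are degraded when DNA synthesis ends. Their mRNAs are the metazoan mRNAs that end in a conserved stem-loop in place of a poly(A) tail. The stem-loop is bound by SLBP, and the mRNA is cut behind it by a complex that contains the U7 snRNP. H2A, H2B, H3 and H4 form the nucleosome core, while H1 binds the linker DNA between nucleosomes. The genes lie in clusters and encode nearly the same proteins in each class, so that sequence reads cannot always be assigned to a single copy. The libraries were made from total RNA after removal of ribosomal RNA, without selection of poly(A) tails.

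The stem-loop stood in the RNA of many members. The 16 letters in capitals in the examples, with any base at the place in the loop where these differ, were searched on the sense strand behind the stop codon in GENCODE vM21 transcripts. They were found in 31 of the 66 members with a coding sequence. Among members with at least 60 bases behind the stop codon, 30 of 47 held it, against 2 of 20325 other protein-coding genes (0.00984%). A member without these exact letters may hold a variant of the stem-loop or an annotated transcript that stops before it. The sequences of 6 members are printed with the match in capitals and 5 bases on either side in lower case. Only the free letter of the loop could vary in a match, as the search fixed the others.
Hist1h1e: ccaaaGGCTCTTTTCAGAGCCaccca
Hist1h1t: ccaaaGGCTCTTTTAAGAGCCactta
Hist1h2bb: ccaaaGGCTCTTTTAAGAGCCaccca
Hist1h2bm: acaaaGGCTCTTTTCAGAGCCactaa
Hist1h3b: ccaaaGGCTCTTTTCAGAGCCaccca
Hist2h2ac: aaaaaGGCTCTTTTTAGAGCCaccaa
The single free letter of the loop was C, A or T in these members. Transcripts of several members are annotated to run on behind the stem-loop, by 1153 bases in Hist1h1e and by 185 bases in Hist1h1t, against 23 bases in Hist1h2bb.

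Promoters were compared because 4 members passed the test between tissues. The promoters of these 4, from 250 bases before to 50 bases after the start in RefSeq (GRCm38.p6), are printed 5′ to 3′ on the strand of the gene. Capitals mark CCAAT and its reverse complement ATTGG, bound by NF-Y, the TATA box TATAAA, the octamer ATTTGCAT, bound by OCT1, and AAACACA, the H1 box of linker histone promoters. The 4 motifs do not overlap one another in these promoters.
Hist1h1a (chr13:23763418-23763717, plus strand): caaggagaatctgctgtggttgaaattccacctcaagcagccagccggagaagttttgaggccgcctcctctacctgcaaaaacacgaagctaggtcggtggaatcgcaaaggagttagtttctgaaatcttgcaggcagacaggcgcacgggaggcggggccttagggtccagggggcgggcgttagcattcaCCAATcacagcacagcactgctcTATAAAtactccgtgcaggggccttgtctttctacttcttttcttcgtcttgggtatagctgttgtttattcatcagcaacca
Hist1h1e (chr13:23622509-23622808, minus strand): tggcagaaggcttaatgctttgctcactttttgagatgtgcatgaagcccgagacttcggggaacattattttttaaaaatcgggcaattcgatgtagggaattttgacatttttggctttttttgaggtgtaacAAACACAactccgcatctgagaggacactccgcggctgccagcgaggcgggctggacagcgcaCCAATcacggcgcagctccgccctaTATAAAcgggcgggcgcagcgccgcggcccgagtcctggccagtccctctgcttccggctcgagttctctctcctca
Hist1h1t (chr13:23695561-23695860, plus strand): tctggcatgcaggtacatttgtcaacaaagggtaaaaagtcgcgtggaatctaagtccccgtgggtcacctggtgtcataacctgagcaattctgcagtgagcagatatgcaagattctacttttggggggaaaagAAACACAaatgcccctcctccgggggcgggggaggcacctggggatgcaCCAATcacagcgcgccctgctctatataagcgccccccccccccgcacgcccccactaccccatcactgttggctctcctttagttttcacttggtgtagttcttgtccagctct
Hist2h2bb (chr3:96269450-96269749, plus strand): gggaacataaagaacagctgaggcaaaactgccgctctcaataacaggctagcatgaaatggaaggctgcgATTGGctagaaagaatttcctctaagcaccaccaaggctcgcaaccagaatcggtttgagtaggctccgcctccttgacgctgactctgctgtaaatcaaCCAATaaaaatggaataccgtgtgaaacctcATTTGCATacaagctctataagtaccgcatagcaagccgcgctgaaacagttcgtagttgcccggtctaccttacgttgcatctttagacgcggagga
CCAAT began 56, 52, 65 and 79 bases before the start of Hist1h1a, Hist1h1e, Hist1h1t and Hist2h2bb on the strand of the gene. On either strand it was found in 52 of 61 member promoters (85.2%), against 37.9% of 27025 promoters in the table. It stood in every H1, H2A, H2B and H3 promoter matched, and in 3 of 12 H4 promoters. TATAAA stood in 35 of 61 member promoters (57.4%), against 14.2% of all. The octamer was found in 7 of 17 H2A and 6 of 16 H2B promoters and in no H1, H3 or H4 promoter, against 1.75% of all promoters. The H1 box stood in 5 of 6 H1 promoters, all but that of Hist1h1a, against 7.14% of all. The motifs thus described classes of histone genes, and a match of letters is not a site of binding.

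Near-identical copies limit what can be said of single genes. The median identity of coding sequences of equal length was 96.4% among H2A genes, 95.7% among H2B genes, 97.6% among H3 genes and 93.9% among H4 genes. Of windows of 50 bases in the coding sequence, 33 of 66 members had none that differed by more than 2 bases from every other member. All 6 H1 genes had over 50% of such unique windows, as had 3 H2A, 3 H2B and 2 H4 genes and 0 H3 genes. The first 60 coding bases of a few H4 and H2B members are printed, with capitals where a base differs from the first gene printed of its class. This stretch does not rank the whole coding sequences. Hist4h4 differs from Hist1h4d at 9 bases here and at 40 of 312 in all, and Hist1h4m at 13 and 20.
Hist1h4d: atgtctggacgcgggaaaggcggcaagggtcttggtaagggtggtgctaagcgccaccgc
Hist1h4m: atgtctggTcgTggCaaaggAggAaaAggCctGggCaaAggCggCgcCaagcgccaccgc
Hist1h4n: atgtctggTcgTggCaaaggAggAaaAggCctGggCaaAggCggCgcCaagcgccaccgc
Hist4h4: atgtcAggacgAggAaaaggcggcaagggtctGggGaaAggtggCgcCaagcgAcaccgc
Hist1h2bm: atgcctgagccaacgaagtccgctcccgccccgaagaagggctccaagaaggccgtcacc
Hist1h2bb: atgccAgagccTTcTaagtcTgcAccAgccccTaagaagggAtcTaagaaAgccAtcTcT
Hist2h2bb: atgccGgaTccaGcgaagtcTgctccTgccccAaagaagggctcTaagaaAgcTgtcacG
Hist1h4m and Hist1h4n have the same coding sequence, and their counts were the same in every library, 417 reads in all. The same held for Hist1h2ao and Hist1h2ap with 22 reads and for Hist1h2bq and Hist1h2br with 48 reads, so that each pair holds 1 measurement. Hist2h2aa1 and Hist2h2aa2 also share their coding sequence and had 11 and 2 reads. The copies in these 4 pairs are not independent, and values of H2A, H2B, H3 and H4 genes with few unique windows are uncertain as values of a single copy.

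Histone genes together held 260041 reads, 0.149% of all counts with 1 row kept per symbol. H1 genes took 49.2% of these reads, H2B genes 32.7%, H4 genes 6.96%, H2A genes 6.40% and H3 genes 4.71%. The reads were concentrated in few members. Hist2h2bb, an H2B gene of the Hist2 cluster, and Hist1h1a, Hist1h1e and Hist1h1b, which encode linker histones, held 49.8% of them. With Hist1h2bb, Hist1h1c and Hist1h1d the share was 70.7%. Within H2B, Hist2h2bb and Hist1h2bb held 66.0% of the reads. In the other core classes the reads were spread more evenly, with 29.1% of H2A reads in Hist3h2a, 23.9% of H3 reads in Hist1h3b and 29.7% of H4 reads in Hist1h4d.

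Levels were compared between members per kilobase of coding sequence, as the mean over the 8 libraries of CPM, the read counts scaled to a common library size, divided by coding length. The highest were Hist2h2bb with 507, Hist1h2bb with 329, Hist1h1a with 298, Hist1h1e with 269 and Hist1h1b with 256 CPM per coding kb. Hist1h1c and Hist1h1d followed with 153 and 128 CPM per coding kb. The highest of the other classes was the H4 gene Hist1h4d with 97.9 CPM per coding kb, followed by the H2A gene Hist3h2a with 70.4 and the H3 gene Hist1h3b with 40.5. Hist4h4 and Hist2h4, H4 genes with 98.1% and 79.5% of unique windows, had 21.8 CPM per coding kb each. The 33 members without a unique window had a median of 10.4 CPM per coding kb, against 51.9 for the 14 with at least 50% unique windows. All 6 H1 genes are among the 14. Within classes these medians were 7.45 and 15.6 in H2A, 35.3 and 33.4 in H2B and 9.88 and 21.8 in H4 genes. Per kilobase of annotated transcript, the longest of those that carry the longest coding sequence, the order differed. Hist2h2bb kept its value of 507, because its annotated transcript is the coding sequence alone, 381 bases. Hist1h1a, Hist1h2bb and Hist1h1b followed with 258, 247 and 232 CPM per transcript kb, while Hist1h1e had 92.1 and Hist1h1d 11.5. On that scale the H2A gene Hist1h2ab (42.1) and the H4 gene Hist1h4f (31.8) were above Hist3h2a (12.9) and Hist1h4d (26.8), and Hist4h4 had 2.38. Over the 66 members with a coding sequence, Spearman's rho between the share of unique windows and the level was 0.390 per coding kb and 0.224 per transcript kb. These members share libraries, depth and sequence, and within classes rho per coding kb was between 0.0464 in H3 and 0.589 in H4, and these 2 values were -0.15 and -0.16 per transcript kb. The part of shared sequence in the order of the levels was not tested.

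**Figure D1:**
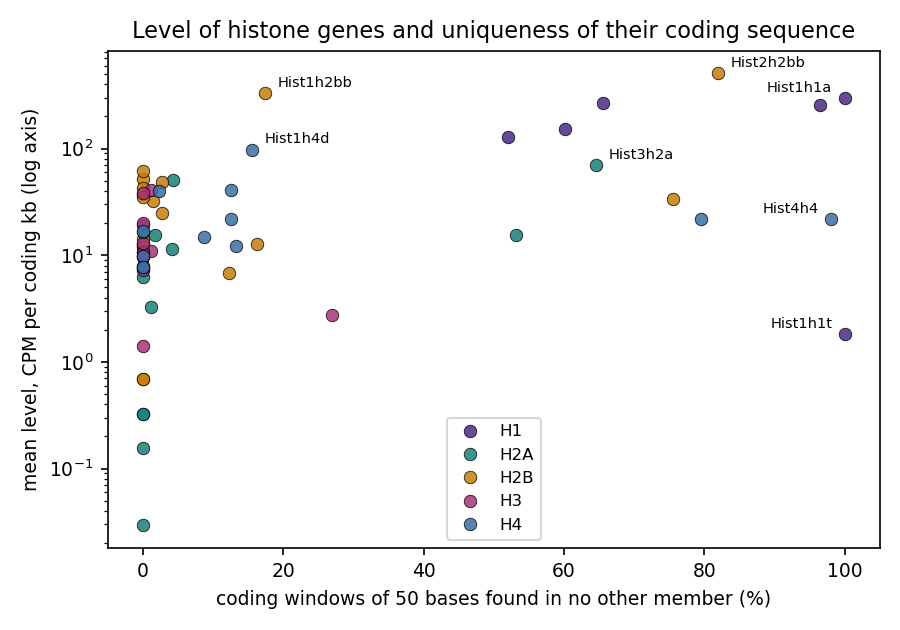
Mean level of histone genes in CPM per kilobase of coding sequence (vertical, log axis) against the percentage of their 50-base coding windows that differ by more than 2 bases from every other member (horizontal). Each point is a member with a coding sequence and at least 1 read, coloured by class, and the level is the mean of 8 libraries. Members without a unique window span the left edge up to 61.0 CPM per coding kb, the level of Hist1h2bm.

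At the low end, the genes known from male germ cells were at or near the limit of detection. Hist1h2aa and Hist1h2ba, variants of H2A and H2B known from testis, had 0 reads in all 8 libraries. Each library held 18955733 to 26579215 counts with 1 row per symbol, and 1 CPM stood for 18.7 to 25.3 reads. Hist1h1t, the linker histone gene known from spermatocytes, was detected with 204 reads in all, and all of its windows are unique. Its level was 1.52 and 0.825 CPM in mutant cushions and 2.02 and 2.33 CPM in wild type cushions. In ventricles it was 0.368 and 0.938 CPM in mutants and 0.481 and 0.686 CPM in wild type. The lowest member tested was Hist2h3b, an H3 gene, with 102 reads and 0.583 CPM on average.

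The summed level of a class in each library shows the spread that every comparison has to exceed. H1 genes summed to 745 and 673 CPM in mutant cushions and 826 and 1006 CPM in wild type cushions. In ventricles the H1 sum was 548 and 857 CPM in mutants and 552 and 596 CPM in wild type. Wild type cushion replicate 2 and mutant ventricle replicate 2 were the highest libraries, and the mutant and wild type cushions did not overlap. H2B genes summed to 466 and 479.6 CPM in mutant cushions, 491 and 671 CPM in wild type cushions, 337 and 602 CPM in mutant ventricles and 390.4 and 429 CPM in wild type ventricles. H4 genes summed to 99.5 and 69.2 CPM in mutant cushions, 101 and 150.2 CPM in wild type cushions, 61.0 and 166 CPM in mutant ventricles and 97.1 and 80.1 CPM in wild type ventricles. The same 2 libraries were highest in both classes, and mutant ventricle replicate 1 was the lowest. H3 genes summed to 64.0 and 43.3 CPM in mutant cushions, 70.1 and 113 CPM in wild type cushions, 38.7 and 105 CPM in mutant ventricles and 62.5 and 59.3 CPM in wild type ventricles. H2A genes summed to 91.4 and 86.6 CPM in mutant cushions, 96.3 and 105 CPM in wild type cushions, 75.9 and 125 CPM in mutant ventricles and 95.1 and 87.4 CPM in wild type ventricles. In all 5 classes the 2 mutant ventricles enclosed the 2 wild type ventricles.

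**Figure D2:**
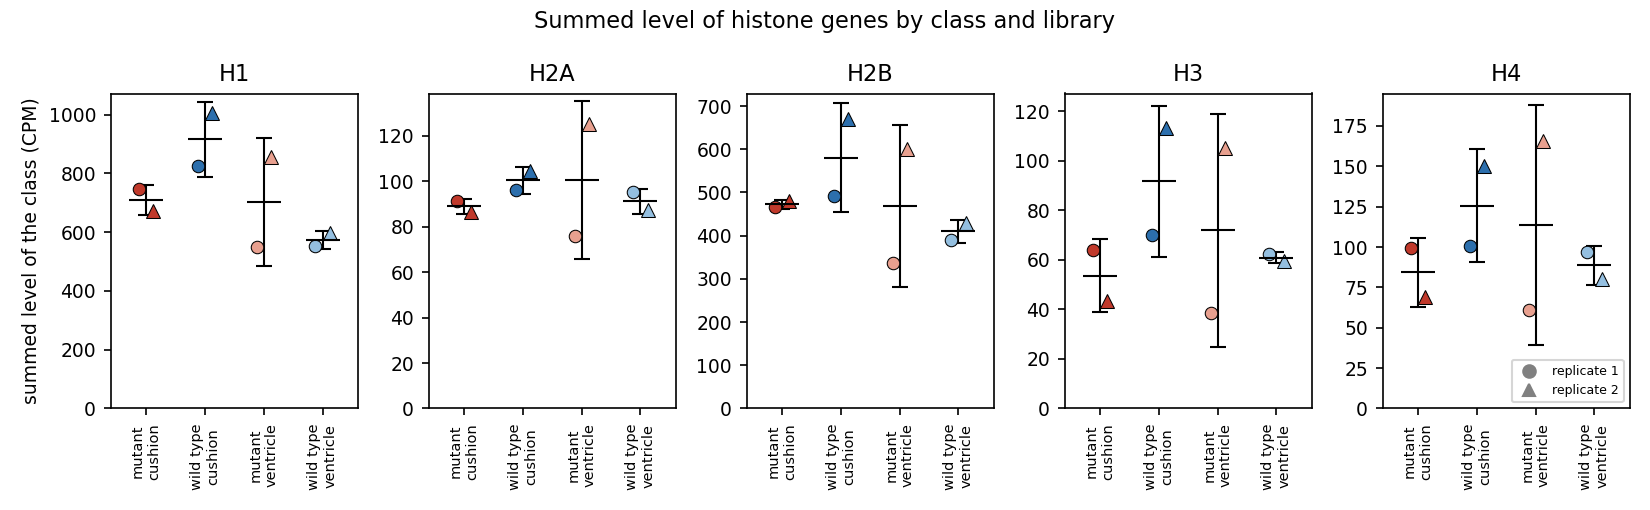
Summed level of the histone genes of each class in CPM (vertical, from 0) in mutant and wild type cushions and mutant and wild type ventricles. Points are single libraries, circles for replicate 1 and triangles for replicate 2, and the bars give mean and SD of 2 libraries. Mutant ventricles have the widest bars in every class, with H1 sums of 548 and 857 CPM.

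The 68 members summed to 1409 ± 80.5 CPM in mutant cushions and 1815 ± 326 CPM in wild type cushions (SD, n = 2 each). In ventricles the sums were 1458 ± 562 CPM in mutants and 1224 ± 38.7 CPM in wild type (SD, n = 2 each). From the lowest to the highest library the sum differed by a factor of 1.93 over all members, and by a factor of 2.93 for H3 and 2.72 for H4 genes, against 1.65 for H2A genes. Between both mutant ventricles, all 60 members tested were higher in replicate 2, with a median log2 ratio of 1.14, against 50.4% of all genes tested. The median ratio was 0.72 for H1, 0.76 for H2A, 1.07 for H2B, 1.52 for H3 and 1.62 for H4 genes, on the scale of log2(CPM + 0.1). In wild type cushions 50 of 60 members were higher in replicate 2, with a median log2 ratio of 0.43, against 50.5% of all genes tested. All 16 H2B genes were among them, against 6 of 13 H2A genes. In mutant cushions 15 of 60 members were higher in replicate 2 (median -0.28), against 46.6% of all genes tested. These included 8 of 16 H2B genes and 0 of 12 H3 genes. In wild type ventricles 21 of 60 were higher in replicate 2 (median -0.13), against 53.9% of all genes tested. Among these were 5 of 6 H1 genes and 3 of 13 H4 genes. All members tested thus moved in the same direction between the mutant ventricles, while classes differed in the other groups.

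27 of the 60 members had their highest level in mutant ventricle replicate 2 and 26 in wild type cushion replicate 2, against 14.8% and 16.9% of all genes tested. 37 of 60 had their lowest level in mutant ventricle replicate 1, against 7.95% of all genes tested. All 6 H1 genes peaked in wild type cushion replicate 2, whereas 10 of 13 H4 and 9 of 13 H2A genes peaked in mutant ventricle replicate 2. Other GC-rich genes deviated in the same libraries. Members had a median transcript GC content of 56.5%, against 49.6% over all genes tested, and 36 of the 59 with an annotation reached 55%. The median deviation of members from their mean over libraries was -0.02 and -0.27 in mutant cushions, 0.08 and 0.55 in wild type cushions, -0.52 and 0.55 in mutant ventricles and -0.07 and -0.22 in wild type ventricles (log2). For 3206 other genes of at least 55% GC it was -0.01 and -0.13, 0.12 and 0.32, -0.13 and 0.13, and -0.12 and -0.16 in the same order. The 2 sets shared their sign in all 8 libraries. Members are also short, with a median transcript of 539 bases, against 3365.5 over all genes tested. For 473 other genes under 800 bases the median deviation was -0.12 and -0.02, -0.22 and -0.09, -0.01 and 0.27, and 0.03 and 0.23 in the same order. These short genes had the sign of members in the mutant libraries and the opposite sign in the wild type libraries. The part of GC content and length in the histone values was not tested beyond the fit with an offset for both given below.

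**Figure D3:**
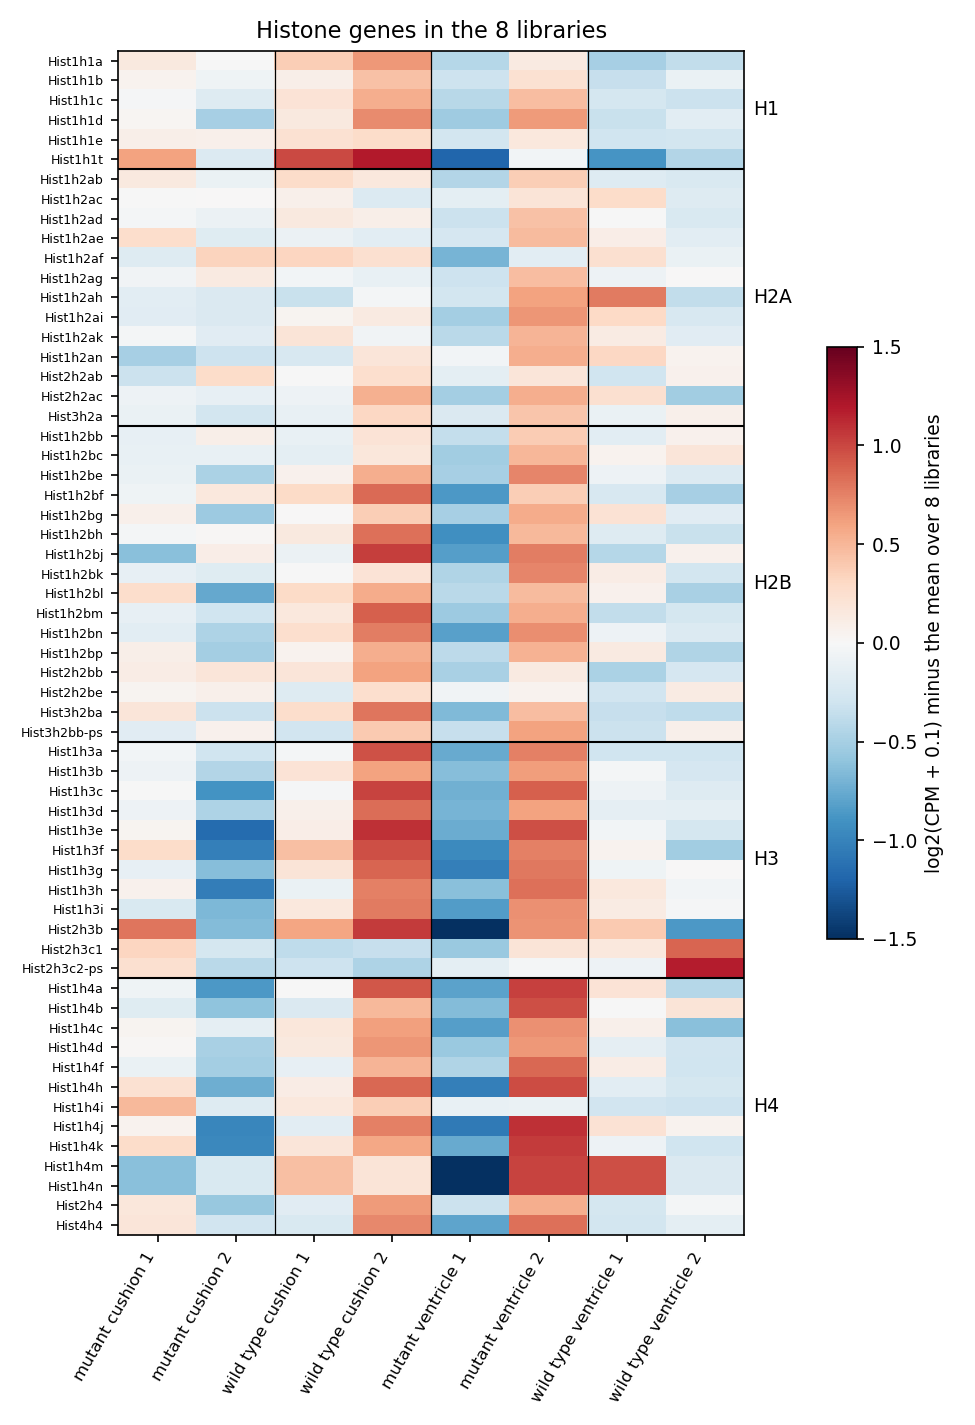
Level of the 60 tested histone genes in the 8 libraries, as log2(CPM + 0.1) minus the mean of the gene over the libraries, with colours cut at -1.5 and 1.5. Rows are genes in class order and columns are libraries, each mutant pair left of its wild type pair. The column of wild type cushion replicate 2 and that of mutant ventricle replicate 2 are mostly above the gene means, and that of mutant ventricle replicate 1 is below them.

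The summed level of S phase genes varied less between libraries than that of histone genes. A list of 42 genes of S phase and DNA replication, among them the MCM helicase genes and Pcna, summed to 3688 and 3635 CPM in mutant cushions and 3673 and 3393 CPM in wild type cushions. In ventricles the list summed to 4219.7 and 3979 CPM in mutants and 4207 and 4160.0 CPM in wild type. Wild type cushion replicate 2, the library with the highest histone sum, had the lowest S phase sum. Histone sums were 39.7% and 37.2% of S phase sums in mutant cushions and 43.1% and 60.3% in wild type cushions. They were 25.1% and 46.6% in mutant ventricles and 28.5% and 30.1% in wild type ventricles. Every cushion library was thus above every wild type ventricle library in this share. Mutant ventricle replicate 2 was above every cushion library except wild type cushion replicate 2. In tissue RNA, fewer cells in S phase and less histone mRNA per cell cannot be told apart.

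**Figure D4:**
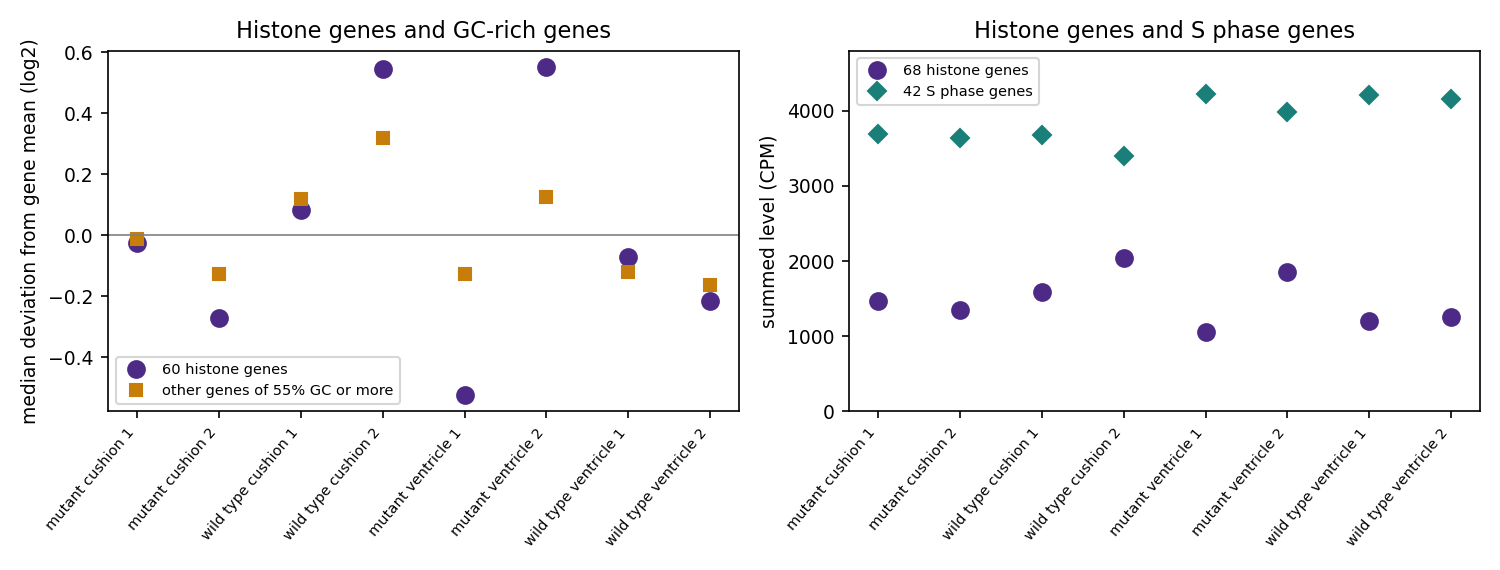
Left, median deviation from the gene mean (log2) of 60 histone genes (circles) and of 3206 other genes of at least 55% GC (squares) in each library. Right, summed CPM of 68 histone genes (circles) and of 42 S phase genes (diamonds) in each library. Circles and squares share their sign in all 8 libraries, and the S phase sum is lowest, 3393 CPM, where the histone sum is highest, 2045 CPM.

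The genotype was checked first. Klf2 was at 1.96 and 0.651 CPM in mutant cushions and 17.3 and 12.9 CPM in wild type cushions, and at 0.735 and 0.625 CPM in mutant ventricles and 11.7 and 9.19 CPM in wild type ventricles, so that groups did not overlap in either tissue. Its log2 fold change in cushions was -3.54 ± 0.42, with an adjusted p of 0.145 in edgeR, and 2.86e-05 with the replicate number as a block. Nfatc1 was at 24.9 and 15.2 CPM in mutant cushions and 35.9 and 22.1 CPM in wild type cushions, and these overlapped. Cushion mesenchyme markers summed to 7901 to 16263 CPM in cushions and 1849 to 4769.6 CPM in ventricles. Markers of ventricular myocardium summed to 20463 to 40335 CPM in cushions and 31112 to 91401 CPM in ventricles, so that muscle RNA was present in the cushion samples. Erythroid genes summed to 800.3 to 3665 CPM in cushions and 2401 to 7966 CPM in ventricles. In mutant against wild type cushions, 11 of 12 mesenchyme markers had a negative and 7 of 7 leukocyte markers a positive log2 fold change, with 0 called. Leukocyte genes summed to 94.4 and 129 CPM in mutant cushions and 66.4 and 94.9 CPM in wild type cushions, with overlap. Epicardium markers summed to 334 and 265 CPM in mutant cushions and 193 and 237 CPM in wild type cushions, and 6 of 7 had a positive log2 fold change. Genes of G2 and mitosis summed to 6223 and 6419 CPM in mutant cushions and 5968 and 5305 CPM in wild type cushions, and 20 of 28 had a positive log2 fold change. Both of these sums were separate between the groups, with 0 genes called. The part of these cells and of the cell cycle in the histone values was not tested.

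The 5 comparisons that follow share libraries. In mutant cushions the median of every histone class was below that of wild type cushions, except H2A with a GC offset, and no member passed the test. 54 of 60 members had a negative log2 fold change, with a median of -0.51, against -0.01 over all genes tested. In edgeR 0 members passed in either direction, where 0% of all genes tested did. 0 higher and 1 lower had an unadjusted p under 0.05, against 6.14% and 5.23% of all genes tested. DESeq2 called 0 members too, where 0.0402% of all genes were higher and 0.127% lower, and so did edgeR with the replicate number as a block, where 0.295% of genes were called higher and 0.569% lower. The 2 mutant libraries were both below the 2 wild type libraries in 31 of 60 members, against 23.9% of all genes tested, and above them in 1, against 24.5%. The median was -0.67 without wild type cushion replicate 1, and -0.22 without wild type cushion replicate 2. It was -0.33 without mutant cushion replicate 2, and -0.33 with the block and an offset for GC content and length.

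The H1 genes were the class with the most regular difference, since all 6 were lower in both mutant cushions than in both wild type cushions. Their log2 fold changes were between -0.90 and -0.17, with a median of -0.47. Hist1h1a, which encodes a linker histone, was at 204 and 184 CPM in mutant cushions and 239 and 289 CPM in wild type cushions. Its log2 fold change was -0.44 ± 0.19 (SE), with an unadjusted p of 0.0498 and an adjusted p of 0.439, and 0.111 with the block. Hist1h1c, also a linker histone gene, was at 93.5 and 82.9 CPM in mutant cushions and 109 and 139 CPM in wild type cushions, a log2 fold change of -0.49 ± 0.26 (adjusted p = 0.484). Hist1h1e, second to Hist1h1a in reads among linker histone genes, was at 187 and 185 CPM in mutant cushions and 206 and 213 CPM in wild type cushions. The groups were separate, and its log2 fold change of -0.17 ± 0.15 was the smallest of the class (adjusted p = 0.651). Hist1h1t had a log2 fold change of -0.90 ± 0.46 at a low level (adjusted p = 0.468).

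Core histone genes, which encode the proteins of the nucleosome core, differed more widely. The median log2 fold change was -0.18 in H2A, -0.53 in H2B, -0.79 in H3 and -0.63 in H4 genes. 10 of 13 H2A genes, 15 of 16 H2B genes, 10 of 12 H3 genes and all 13 H4 genes had a negative value. Hist1h2bm, an H2B gene, was at 20.2 and 17.9 CPM in mutant cushions and 24.6 and 41.0 CPM in wild type cushions, a log2 fold change of -0.78 ± 0.37 (adjusted p = 0.456). Hist1h3i, an H3 gene, was at 4.27 and 3.13 CPM in mutant cushions and 5.63 and 8.71 CPM in wild type cushions, a log2 fold change of -0.96 ± 0.47 (adjusted p = 0.463). In both genes the groups were separate and wild type cushion replicate 2 was the highest of the 4 libraries. Hist1h4d, the H4 gene with the most reads, was at 29.4 and 20.8 CPM in mutant cushions and 32.2 and 46.1 CPM in wild type cushions, a log2 fold change of -0.64 ± 0.40 (adjusted p = 0.529). The H2B genes with the highest level per length stood nearer to 0. Hist2h2bb was at 203 and 213 CPM in mutant cushions and 213 and 286 CPM in wild type cushions, with overlapping libraries and a log2 fold change of -0.26 ± 0.22 (adjusted p = 0.626). Hist1h2bb was at 114 and 132 CPM in mutant cushions and 115 and 143 CPM in wild type cushions, also overlapping, with a log2 fold change of -0.07 ± 0.24 (adjusted p = 0.922).

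Among the 4 cushion libraries, wild type cushion replicate 2 was also the highest in the following members except Hist1h2ab. Hist1h1b, a linker histone gene, was at 176 and 162 CPM in mutant cushions and 181 and 231 CPM in wild type cushions, a log2 fold change of -0.28 ± 0.20 (adjusted p = 0.559). Hist1h1d, also a linker histone gene, was at 83.1 and 57.4 CPM in mutant cushions and 89.9 and 133 CPM in wild type cushions, a log2 fold change of -0.66 ± 0.40 (adjusted p = 0.526). In both the groups were separate. Hist3h2a, the H2A gene with the most reads, was at 25.4 and 22.5 CPM in mutant cushions and 25.2 and 33.9 CPM in wild type cushions, with overlap. Hist1h2ab, the next H2A gene, was at 21.7 and 18.2 CPM in mutant cushions and 23.7 and 21.9 CPM in wild type cushions, without overlap and with a log2 fold change of -0.19 ± 0.24. Hist1h3b, the H3 gene with the most reads, was at 15.2 and 11.7 CPM in mutant cushions and 18.4 and 24.3 CPM in wild type cushions, a log2 fold change of -0.67 ± 0.39 (adjusted p = 0.506). Hist1h3d, the next H3 gene, was at 14.0 and 10.7 CPM in mutant cushions and 15.6 and 26.5 CPM in wild type cushions, a log2 fold change of -0.77 ± 0.44. Both H3 genes were separate between the groups, and mutant cushion replicate 2 was the lowest of the 4 cushion libraries. Hist1h3e, an H3 gene at 4.02 and 1.69 CPM in mutant cushions and 4.18 and 8.47 CPM in wild type cushions, had the most negative log2 fold change of all members, -1.16. Hist4h4, the single gene of the Hist4 cluster and nearly free of shared windows, was at 7.26 and 5.21 CPM in mutant cushions and 5.45 and 10.6 CPM in wild type cushions, with overlap.

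A few members ran the other way. Hist2h3c1, an H3 gene of the Hist2 cluster, was at 1.81 and 1.17 CPM in mutant cushions and 1.08 and 1.11 CPM in wild type cushions, a log2 fold change of 0.44 ± 0.43 (adjusted p = 0.671). It was the only member with both mutant cushion libraries above both wild type cushion libraries. Hist2h3c2-ps, whose symbol marks a pseudogene, had a log2 fold change of 0.37 ± 0.49 (adjusted p = 0.770). Hist1h2ae, an H2A gene without a unique window, had 0.18 ± 0.30 (adjusted p = 0.816). With the block and the offset for GC content and length, the median of the 13 H2A genes was 0.11, against -0.18 without them, so that the direction of this class depended on the setting. The class had the highest GC content, with a median of 64.3%.

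**Figure D5:**
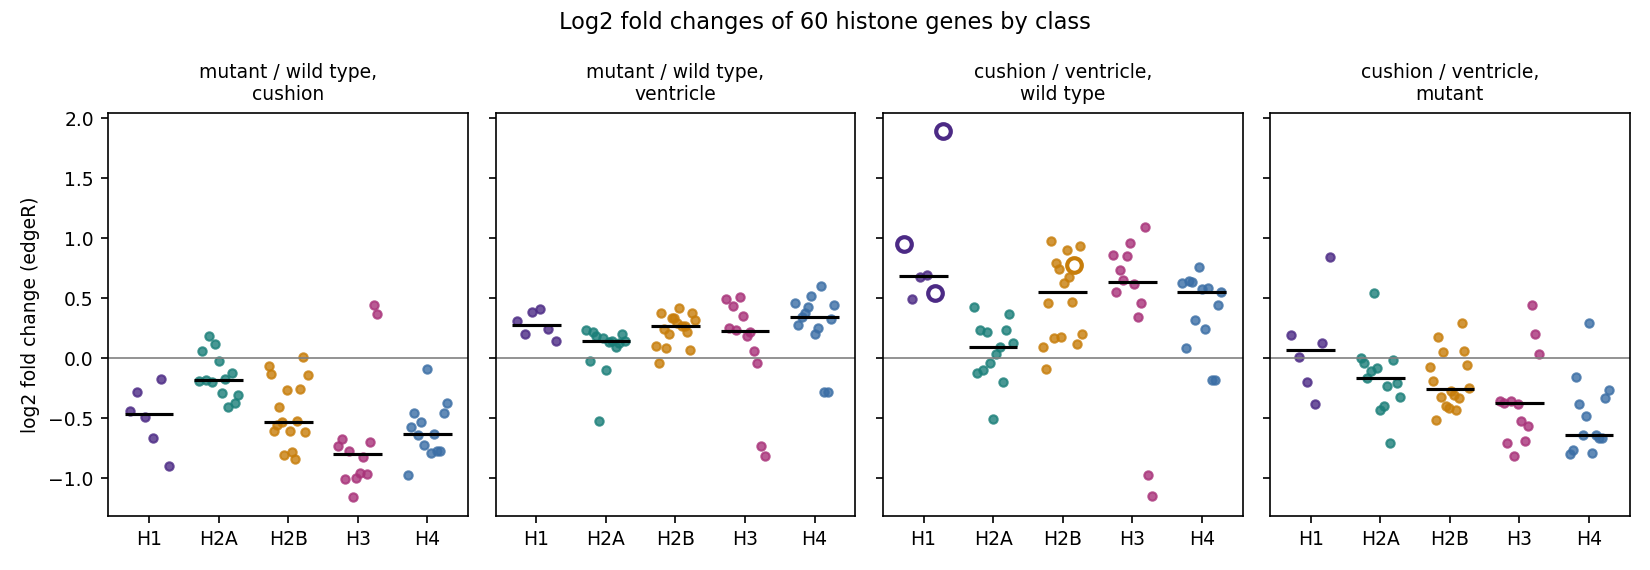
Log2 fold changes of the 60 tested histone genes from edgeR (vertical) by class, in 4 comparisons with the numerator named first. Each point is a gene, black bars are class medians, and open circles mark the 4 genes with an adjusted p under 0.05. Class medians in cushions lie between -0.79 in H3 and -0.18 in H2A for mutant against wild type, and in ventricles between 0.14 in H2A and 0.35 in H4.

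In ventricles, the mutants were on average above the wild type, and the 2 mutant libraries lay on either side of it. 51 of 60 members had a positive log2 fold change, with a median of 0.23 (all genes tested, -0.01). No member passed in edgeR (0% of all genes higher and 0% lower), 0 members had an unadjusted p under 0.05, against 1.18% of all genes higher and 1.1% lower. 0 passed in DESeq2 (0% of all genes higher, 0.00669% lower) or with the block (0% and 0.00669%). Both mutant libraries were above both wild type libraries in 2 members, Hist1h1e and Hist1h4i, against 13.1% of all genes tested, and below them in 1, Hist1h2af, against 14.6%. Without mutant ventricle replicate 1 the median was 0.72, and without mutant ventricle replicate 2 it was -0.49, so that its direction rested on that library. Hist1h1e was at 146 and 196 CPM in mutant ventricles and 143 and 145 CPM in wild type ventricles, a log2 fold change of 0.25 ± 0.16 (adjusted p = 0.998). Hist1h1a was at 137 and 202 CPM in mutant ventricles and 131 and 142 CPM in wild type ventricles, with overlapping libraries and a log2 fold change of 0.31 ± 0.19 (adjusted p = 0.998). Hist1h4d was at 19.7 and 45.6 CPM in mutant ventricles and 26.6 and 23.8 CPM in wild type ventricles, a log2 fold change of 0.37 ± 0.40 (adjusted p = 0.998). The mutant libraries of this gene lay on either side of those of wild type. The same held for the H3 gene Hist1h3b, at 10.2 and 24.6 CPM in mutant ventricles and 15.7 and 13.4 CPM in wild type ventricles, and for Hist4h4, at 3.64 and 11.4 CPM in mutant ventricles and 5.24 and 5.76 CPM in wild type ventricles. Hist1h4m and Hist1h4n, the pair of equal sequence, were at 0.654 and 4.33 CPM in mutant ventricles and 4.22 and 1.80 CPM in wild type ventricles. In this pair wild type ventricle replicate 1 was near the higher mutant library. Hist2h3c2-ps had the most negative value, -0.82 ± 0.47, at 1.06 and 1.16 CPM in mutant ventricles and 1.12 and 2.80 CPM in wild type ventricles.

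The difference of the genotype effect between tissues was tested as an interaction, cushion minus ventricle. 55 of 60 members had a negative value, with a median of -0.77, against -0.01 over all genes tested. 0 members passed in edgeR (0% of all genes in either direction), in DESeq2 or with the block. Hist1h1a (-0.75 ± 0.27, adjusted p = 0.415) and Hist1h1c (-0.88 ± 0.37, adjusted p = 0.418) were the 2 with an unadjusted p under 0.05, where 4.96% of all genes had one in this direction and 6.93% in the other. With the block, the smallest adjusted p among members was 0.0892, in Hist1h1a. The median was -0.05 without mutant ventricle replicate 2 and -1.27 without mutant ventricle replicate 1. The median of the H2A genes was -0.32, and 0.02 with the block and the offset for GC content and length.

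Between the tissues of wild type embryos, members passed the test, and these were 3 linker histone genes and 1 H2B gene, all higher in cushions than in ventricles. 4 members rose and 0 fell in edgeR, against 12.46% of all genes higher and 10.6% lower, and so the share of members called was below the background. 9 members had an unadjusted p under 0.05 in the higher direction and 2 in the lower, against 20% and 18.5% of all genes tested. 50 of 60 had a positive log2 fold change, with a median of 0.46 (all genes tested, 0.01). Both cushion libraries were above both ventricle libraries in 31 members, against 33.5% of all genes tested, and below them in 2, against 31.8%. DESeq2 called 5 higher and 0 lower, against 12.1% and 11.2% of all genes. With the block 9 members rose and 0 fell, against 21.2% and 20.1% of all genes. The same counts were found with the block and the offset for GC content and length, where 2435 of 14940 genes were called higher and 3721 lower.

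3 of the 4 genes that rose were H1 genes. Hist1h1a was at 239 and 289 CPM in wild type cushions and 131 and 142 CPM in wild type ventricles. Its log2 fold change was 0.95 ± 0.20, with an adjusted p of 0.0118, and 2.26e-04 with the block. Every cushion library, mutant ones included, was above both wild type ventricles in this gene. Mutant tissues overlapped, with 202 CPM in mutant ventricle replicate 2 and 184 CPM in mutant cushion replicate 2. Hist1h1t was at 2.02 and 2.33 CPM in wild type cushions and 0.481 and 0.686 CPM in wild type ventricles, a log2 fold change of 1.89 ± 0.51 (adjusted p = 0.0302). This was the widest tissue difference among members, in a gene known from testis, and it rests on 43 and 59 reads in wild type cushions and 9 and 13 reads in wild type ventricles. Hist1h1e was at 206 and 213 CPM in wild type cushions and 143 and 145 CPM in wild type ventricles, a log2 fold change of 0.54 ± 0.16 (adjusted p = 0.0380). The libraries of each group lay close together. Hist2h2bb, the H2B gene with the most reads, was at 213 and 286 CPM in wild type cushions and 135 and 157 CPM in wild type ventricles, a log2 fold change of 0.77 ± 0.22 (adjusted p = 0.0398). All 4 passed with the block and in DESeq2, and none of the 4 shares most of its coding windows with another member.

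The calls were sensitive to single libraries. Leaving out any 1 library changed the count of higher members, with 1 library left in a group, and the share of all genes called there is not given. The median log2 fold change was 0.21 without wild type cushion replicate 2. Hist1h1a had a log2 fold change of 0.81 without that library. It had 0.88 without wild type ventricle replicate 1 and 1.01 without wild type ventricle replicate 2. Each of these omissions left 1 library in a wild type group, so these effect sizes do not show that the call holds without that library. With the block, the members called besides the 4 were the H1 gene Hist1h1b (log2 fold change 0.49, adjusted p = 0.0125) and the H2B genes Hist1h2bf, Hist1h2bj, Hist3h2ba and Hist1h2bm. Hist1h2bm was at 24.6 and 41.0 CPM in wild type cushions and 16.9 and 18.3 CPM in wild type ventricles, with an adjusted p of 0.122, and 0.0436 with the block and 0.0460 in DESeq2. 0 of 13 H2A, 0 of 12 H3 and 0 of 13 H4 genes passed in any of these 3 fits. The median log2 fold change was 0.69 in H1, 0.09 in H2A, 0.55 in H2B, 0.64 in H3 and 0.55 in H4 genes. The H2A median was -0.05 with the block and the offset for GC content and length, so that the direction of this class depended on the setting.

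2 H3 genes of the Hist2 cluster had negative log2 fold changes in this comparison, and neither passed. Hist2h3c1 was at 1.08 and 1.11 CPM in wild type cushions and 1.60 and 2.69 CPM in wild type ventricles, a log2 fold change of -0.97 ± 0.42 (adjusted p = 0.126). Hist2h3c2-ps was at 0.939 and 0.831 CPM in wild type cushions and 1.12 and 2.80 CPM in wild type ventricles, a log2 fold change of -1.15 ± 0.48 (adjusted p = 0.113). In both, wild type ventricle replicate 2 was the highest of all 8 libraries. Without wild type ventricle replicate 1 the log2 fold change of Hist2h3c2-ps was -1.66 with an adjusted p of 0.0418, but the wild type ventricles were then that single highest library, assumed to vary like the other groups. Marker sums of muscle and red cells were lower in cushions, as given above, and their part was not tested.

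Between the tissues of mutants, no member passed in edgeR, where 6.16% of all genes were higher and 3.26% lower in cushions. 0 members had an unadjusted p under 0.05, against 14.3% and 10.7% of all genes. 0 passed in DESeq2, which called 7.07% of all genes higher and 5.01% lower, or with the block, which called 13.4% and 10.5%. 46 of 60 members had a negative log2 fold change, with a median of -0.31 (all genes tested, 0.01). Only Hist1h2an, an H2A gene, was lower in both cushion libraries, at 1.67 and 1.91 CPM in mutant cushions and 2.33 and 3.53 CPM in mutant ventricles (log2 fold change -0.70 ± 0.32, adjusted p = 0.210). No member was higher in both, against 28.9% of all genes higher and 24.2% lower. Hist1h1a had a log2 fold change of 0.19 ± 0.19 (adjusted p = 0.597), and Hist2h2bb had 0.30 ± 0.22 (adjusted p = 0.468). With the block and the offset for GC content and length these 2 rose, with adjusted p of 0.0100 and 3.45e-04. In that fit 1847 of 14940 genes were called higher and 2883 lower, a larger share in each direction than of members. The median was 0.35 without mutant ventricle replicate 2 and -0.76 without mutant ventricle replicate 1.

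Genes of histone supply and of the cell cycle were set beside the members in the same fits. In wild type cushions against ventricles, 1 of 42 S phase genes rose and 9 fell, with a median log2 fold change of -0.10, against 12.46% of all genes higher and 10.6% lower. With the block 2 rose and 14 fell, against 21.2% and 20.1% of all genes. Rrm2, a subunit of ribonucleotide reductase, fell by 0.93 on the log2 scale (adjusted p = 0.00370), and Ccne2, a cyclin of S phase entry, fell by 0.98 (adjusted p = 0.00737). Of 28 genes of G2 and mitosis, 0 rose and 6 fell, with a median of -0.28. Hat1, which acetylates newly made H4, fell by 0.89 (adjusted p = 0.00982), and Nasp, a chaperone of H1 and H3, fell by 0.57 (adjusted p = 0.0170), among 24 histone chaperone genes tested of which 1 rose and 6 fell. Of 29 genes of histone mRNA transcription and 3′ processing tested, 2 rose and 2 fell, a smaller share than of all genes in each direction. Lsm11, a protein of the U7 snRNP, rose by 0.43 (adjusted p = 0.0437), and Eri1, an exonuclease that trims histone mRNA ends, fell by 0.47 (adjusted p = 0.0311). In the same comparison 4 histone genes rose and 0 fell, and whether the lists differ from one another was not tested.

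Slbp and Npat, whose products bind the stem-loop and drive histone gene transcription, did not pass in any of the 5 comparisons. Slbp was at 81.3 and 84.4 CPM in mutant cushions and 77.8 and 73.3 CPM in wild type cushions, and at 70.6 and 64.7 CPM in mutant ventricles and 69.3 and 73.3 CPM in wild type ventricles. Its level was higher in both mutant cushions than in both wild type cushions, with a log2 fold change of 0.13 ± 0.12 (adjusted p = 0.637). Npat was at 119.97 and 118 CPM in mutant cushions and 101 and 93.8 CPM in wild type cushions, also without overlap, with a log2 fold change of 0.29 ± 0.15 (adjusted p = 0.473). In mutant against wild type tissue, 0 genes of the S phase, mitosis, processing, chaperone and variant lists passed in edgeR. With the block 1 chaperone gene, Cabin1, fell in mutant cushions, by 0.54 (adjusted p = 0.0488), while its adjusted p was 0.435 without the block.

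Variants listed as replication-independent, most of which can be made outside S phase from mRNAs with poly(A) tails, were measured beside the members. Of 11 tested, 4 rose and 0 fell in wild type cushions against ventricles (12.46% and 10.6% of all genes), and 9 had a positive log2 fold change. The median of the 11 was 0.45, against 0.46 for the replication-dependent genes. That median is the value of H1fx, which had an SE of 0.87. H1fx was near the floor, at 0.563 and 0.673 CPM in wild type cushions and 0.855 and 0.0528 CPM in wild type ventricles. H1f0, the linker histone of differentiated cells, was at 440.4 and 409 CPM in wild type cushions and 218 and 254 CPM in wild type ventricles, and rose by 0.85 ± 0.15 (adjusted p = 0.00702). H2afy, which encodes a macroH2A protein, was at 117 and 129 CPM in wild type cushions and 59.9 and 66.6 CPM in wild type ventricles, and rose by 0.96 ± 0.16 (adjusted p = 0.00549). H1f0 also rose in mutant cushions against mutant ventricles, by 0.82 ± 0.15 (adjusted p = 0.0145), and H2afy had 0.56 ± 0.16 there (adjusted p = 0.0646, and 0.00854 with the block). In mutant against wild type cushions the median of the variants was -0.03, with 0 called, against -0.51 in the replication-dependent genes. H2afz, an H2A variant found at promoters, was at 47.0 and 35.9 CPM in mutant cushions and 23.5 and 23.9 CPM in wild type cushions, and its log2 fold change was 0.80 ± 0.28 (adjusted p = 0.435).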

How the data were processed

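The deposited table holds raw read counts per gene symbol for 8 libraries. Reads were aligned with Bowtie 0.12.7 to mm9, per the submitters' processing notes. The handling of strand and of reads that match several copies is not given in the sources used here. Histone members and gene lists were chosen with earlier results of these data known.

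Of 28644 lines, 1 per symbol was kept (largest total). Counts were filtered with filterByExpr and scaled by TMM, and all 8 libraries in 4 groups were fitted with edgeR 4.0.16 (quasi-likelihood, robust) in R 4.3.3, with 5 contrasts. P-values are two-sided and Benjamini-Hochberg adjusted over 14940 symbols, with a threshold of 0.05. CPM are counts over the TMM-scaled library size. Log2 fold changes carry their SE. DESeq2 1.42.0, other scaling, no filter, summed lines, a block for replicate number, the block with a spline offset for GC content and length, and omission of each library were alternatives. The code was tested on simulated data for mutant against wild type cushions. Of 50 genes changed at each fold, 4 were called at 1.5-fold, 31 at 2-fold and 46 at 3-fold. There were 20 false calls among 14773 genes, and most 1.5-fold changes were missed in this test. The simulation does not measure what was missed in the real data. There, 0 of 14940 genes passed in this comparison. Klf2, with a log2 fold change of -3.54, was among those that did not pass (adjusted p = 0.145 in edgeR).

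Replicate numbers come from the sample titles, which do not say what a shared number stands for. Samples of the same number deviated together, with correlations over all genes from 0.341 to 0.522 in the 6 pairs of groups, and from -0.51 to 0.37 over histone genes. Replicates differed beyond counting noise in every group, the chi-square statistic over its degrees of freedom being 45.5 to 118.

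Genes named are, per class, the 4 with the highest mean CPM, per contrast the 3 with the smallest p in each direction at a mean of at least 1 CPM, every member past the threshold, members near 0 or with shared sequence, and up to 4 genes per other list. Hist1h3e, Hist1h4i, Hist1h2bf, Hist1h2bj, Hist3h2ba, Hist2h4 and Hist4h4 were chosen after their values were seen. GENCODE vM21 matched 22480 symbols (98.3%) and gave coding sequence for 66 members, and RefSeq (GRCm38.p6) gave promoters for 61. Coordinates of sequences are GRCm38, not the mm9 of the alignment, and no position was converted.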

Additional observations from a re-analysis of the deposited data

How the results depend on the processing

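For the 28 named members in 5 contrasts (140 log2 fold changes), no value that passed in either setting changed its sign, while 131 of the alternative values changed sign where neither setting passed, 45 of them without mutant ventricle replicate 2. Of the alternative values, 1929 stayed on their side of the threshold, 18 no longer passed and 13 newly passed. In wild type cushions against ventricles, the count of 4 higher members was 9 with the replicate number as a block and 9 with the block and an offset for GC content and length. In mutant cushions against ventricles, the block with the offset gave 2 higher members in place of 0. How many of all genes were called in these fits is given above. The block changed no other count of members called.

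Leaving out 1 library moved several counts and medians, and where it left 1 library in a group, that library was assumed to vary like the other groups. The share of all genes called in these fits is not given. The counts of members below therefore cannot be set against all genes and do not show a difference of histone genes from them. In wild type cushions against ventricles it gave 0 to 10 higher and 0 to 1 lower members, and 2 to 17 higher and 0 to 2 lower with the block. In mutant cushions against ventricles it gave 0 to 2 lower members, and 0 to 3 higher and 0 to 18 lower with the block (5 without mutant cushion replicate 1). In mutant against wild type cushions it gave 0 to 9 lower members with the block, 6 without either mutant ventricle, and for the interaction 0 to 20, the most without mutant ventricle replicate 1. The median log2 fold change ranged from -0.49 to 0.72 for mutant against wild type ventricles, from -0.67 to -0.22 for cushions, from -1.27 to -0.047 for the interaction, from 0.21 to 0.68 for wild type tissues and from -0.76 to 0.35 for mutant tissues.

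Summing the lines of a symbol in place of the largest line raised library totals and lowered the class sums. For mutant cushions, wild type cushions and wild type ventricles the mean H1 sum became 495, 650.1 and 408 CPM, the H2A sum 62.2, 71.4 and 64.9 CPM, the H2B sum 341, 429 and 303 CPM and the H4 sum 58.9, 88.9 and 63.0 CPM. The H3 sum became 37.4 CPM in mutant cushions and 43.3 CPM in wild type ventricles. Without TMM scaling the H2B sum was 483 CPM in mutant cushions and the H3 sum 58.3 CPM in wild type ventricles.

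Libraries of the same label were up to 2.72 times apart in the sum of a class, and no genotype difference of a member passed in a fit on all 8 libraries. Values of copies without unique sequence are limited by how reads were assigned, which the sources used here do not give.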
